A study of Rattus norvegicus with 9 samples.

Results

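The expression of 10 genes of the antioxidant and thioredoxin system was followed in blood CD4+ T cells of rats. The genes were the peroxiredoxins Prdx1, Prdx2 and Prdx5, thioredoxin (Txn1) and its reductase (Txnrd1), the superoxide dismutases Sod1 and Sod2, haem oxygenase 1 (Hmox1), the regulatory subunit of glutamate-cysteine ligase (Gclm) and glutathione peroxidase 1 (Gpx1). They were chosen by name, out of 34743 gene units in the tables, and all 10 were found. The level of a gene was the sum of TPM over its transcripts, a unit corrected for transcript length and library size. It included assembled transcripts whose locus held that gene name alone.

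All rats were of the SD strain and 8 to 10 weeks old. The combination group held CIA rats given a mixture of compounds for 4 weeks, the model group held CIA rats, and the normal group held normal rats, with 3 libraries in each group. Collagen-induced arthritis is the reading taken here of CIA, a model of rheumatoid arthritis in which rats are immunised with collagen, because the study concerns therapy of that disease. The labels name neither the compounds nor their doses, do not say whether the model and normal rats received a vehicle, and do not say how the CD4+ cells were selected. Nor do they tie a library to its own animal, so p-values measure only the spread between these libraries.

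Superoxide, made by mitochondria and by NADPH oxidases, is converted to hydrogen peroxide by the superoxide dismutases, Sod1 mainly in the cytosol and Sod2 in the mitochondrial matrix. Peroxiredoxins and glutathione peroxidases reduce the peroxide; oxidised peroxiredoxins are restored by thioredoxin, which Txnrd1 recharges with electrons from NADPH, and glutathione is made by glutamate-cysteine ligase and a synthetase. In T cells, hydrogen peroxide formed after receptor engagement also acts as a signal, and thioredoxin and glutathione supply reducing power for proliferation. Several of these genes are known targets of the transcription factor NRF2, which binds the antioxidant response element in promoters together with small MAF proteins.

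Promoter sequences from RefSeq (build GRCr8), from 250 bases before to 50 bases after each start, were matched to 9 of the 10 genes, with 10 promoters in all, since Txnrd1 has 2. They are shown because several members are known targets of NRF2. The core of the antioxidant response element was searched as TGACNNNGC on both strands. It was present in promoters of 5 genes, Prdx1, Prdx5, Txnrd1 (1 of its 2 promoters), Sod2 and Gclm, and in 12.1% of all 33469 rat promoters of this length. The sequences below run 5′ to 3′ on the strand of the gene, with the core in capitals, for the whole Prdx1 promoter and for 60-base windows around the other matches. Every match reads as the reverse complement of the searched letters.
Prdx1 promoter, chr5:135383656-135383955 (+): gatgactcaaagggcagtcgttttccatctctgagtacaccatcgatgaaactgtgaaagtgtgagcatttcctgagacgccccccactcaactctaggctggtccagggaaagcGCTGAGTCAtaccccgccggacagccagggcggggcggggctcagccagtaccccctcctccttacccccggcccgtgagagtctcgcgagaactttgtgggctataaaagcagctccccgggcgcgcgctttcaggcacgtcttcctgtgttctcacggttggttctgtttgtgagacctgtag
Gclm window, chr2:213031937-213031996 (+): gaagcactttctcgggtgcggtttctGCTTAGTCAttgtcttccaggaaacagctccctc
Txnrd1 window, chr7:22755949-22756008 (-): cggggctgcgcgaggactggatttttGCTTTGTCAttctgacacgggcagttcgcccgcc
Sod2 window, chr1:50050170-50050229 (-): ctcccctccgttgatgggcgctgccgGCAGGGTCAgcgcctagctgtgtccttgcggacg
Prdx5 window, chr1:213531995-213532054 (-): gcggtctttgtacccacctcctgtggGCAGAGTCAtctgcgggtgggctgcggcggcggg

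Counted from the start, the Prdx1 match lay at -135 to -127 and overlapped an AP-1 match, TGANTCA, at -133 to -127; another AP-1 match lay at -248 to -242. AP-1 is a dimer of JUN and FOS family factors, and its letters were found in 7.33% of all promoters of this length. The Gclm match lay at -172 to -164, the Txnrd1 match at -78 to -70, the Sod2 match at -35 to -27 and the Prdx5 match at -1 to 7. No match was found in the windows of Prdx2, Txn1, Sod1 and Gpx1. A match describes letters in a window and is not a measured binding site.

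The libraries held 7.52 to 10.1 gigabases of aligned sequence, of which 86.7% to 89.0% lay in the listed transcripts. Read counts were not derived, since read length is not given. The defining genes of T cells were abundant in each group: 15 of the 16 listed T cell identity genes were found, each with a mean of at least 1 TPM, and together they held 3217 to 3557 TPM in combination, 2822 to 3721 TPM in model and 3664 to 4555 TPM in normal libraries. The sum was lower in every combination library than in every normal one. Of the 15, Lat, a signalling adaptor, fell in combination against normal (242 ± 33.5 and 418 ± 21.7 TPM, log2 fold change -0.79, adjusted p = 0.0478). Cd4 averaged 121 ± 22.1 TPM in combination, 121 ± 58.1 TPM in model and 222 ± 17.3 TPM in normal libraries and did not pass (adjusted p = 0.107 in combination against normal and 0.0863 in model against normal). These 2 were chosen after their values were seen. In combination against normal, 9 of the 15 log2 fold changes were negative and 6 positive. The libraries of these groups lay apart for 7 of the 15, all lower in combination. Over all genes tested 17.8% lay apart as lower and 17.7% as higher. Among the T cell genes whose libraries overlapped, Cd3d averaged 450 TPM in combination and 441 TPM in normal libraries, and Zap70 173 and 171 TPM. Model replicate 2 stood apart from its group on the first principal component (26.0% of the variance). Its coordinate there was -0.14, inside the span of the combination libraries (-3.50 to 6.93). Model replicates 1 and 3 had 39.7 and 60.1 and normal libraries -41.0 to -30.6. On the second component (22.05% of the variance) it lay with its group and away from the combination libraries. Model replicates 1, 2 and 3 had -12.4, -27.5 and -28.1 there, and combination libraries 35.25 to 45.2. The values of members that moved most without model replicate 2 are given below in both ways.

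Levels were compared on log2(TPM + 1) with limma in 1 fit of the 9 libraries over the 14252 genes that averaged 1 TPM or more. Benjamini-Hochberg adjustment ran over all of these genes, with a threshold of 0.05. Log2 fold changes are on that scale. Of the 10 members, 9 passed the filter and Hmox1 did not. The 3 comparisons share libraries, so the values of a gene in one are not independent of those in another.

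The model group was set against the normal group to ask how the cells differed in arthritic rats. None of the 9 members tested passed, beside 4.01% of all genes (572 of 14252; 2.32% higher and 1.69% lower), and 1 member, Txn1, had an unadjusted p under 0.05. The members' log2 fold changes ran between -0.52 (Txn1) and 0.48 (Txnrd1), 5 positive and 4 negative, with a median of 0.13; the median over all genes tested was -0.0052. The libraries of both groups lay apart for 1 tested member, Sod2, which was higher, beside 32.7% of all genes (18.6% higher and 14.1% lower). Prdx2 and Txn1 passed without model replicate 2, both lower in the model group. These were 2 of the 9 members, in a fit that called 2682 of all 14294 genes tested. The Txn1 values of that fit are in TPM, which the split between its transcripts affects, as given below.

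The combination group was set against the model group to ask how treated arthritic rats differed from untreated ones. Of the 9 members, 1 passed, Prdx1, which was lower, beside 4.15% of all genes (592 of 14252; 2.16% higher and 1.99% lower). Gclm also had an unadjusted p under 0.05 and missed the threshold. Groups lay apart for these 2 members, both lower in the combination group, beside 26.7% of all genes (13.7% higher and 13% lower). The median log2 fold change was -0.088 over the members and 0.029 over all genes. Of the 592 genes called, 52% were higher in the combination group; with haemoglobin, mitochondrial and ribosomal protein genes left out of the scaling this was 65.4% of 1372 genes, and the median of all genes was then 0.13.

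The combination group was also set against the normal group. Prdx1 was the 1 member of 9 that passed, again lower, beside 3.62% of all genes (516 of 14252; 2.02% higher and 1.6% lower). Unadjusted p-values under 0.05 were found for 4 members, Prdx1, Prdx2, Sod1 and Sod2. The groups lay apart for 5 of the 9, Sod1 and Sod2 higher and Prdx1, Prdx2 and Txn1 lower, beside 35.5% of all genes (17.7% higher and 17.8% lower). The median was -0.13 over the members and 0.041 over all genes.

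**Figure D1:**
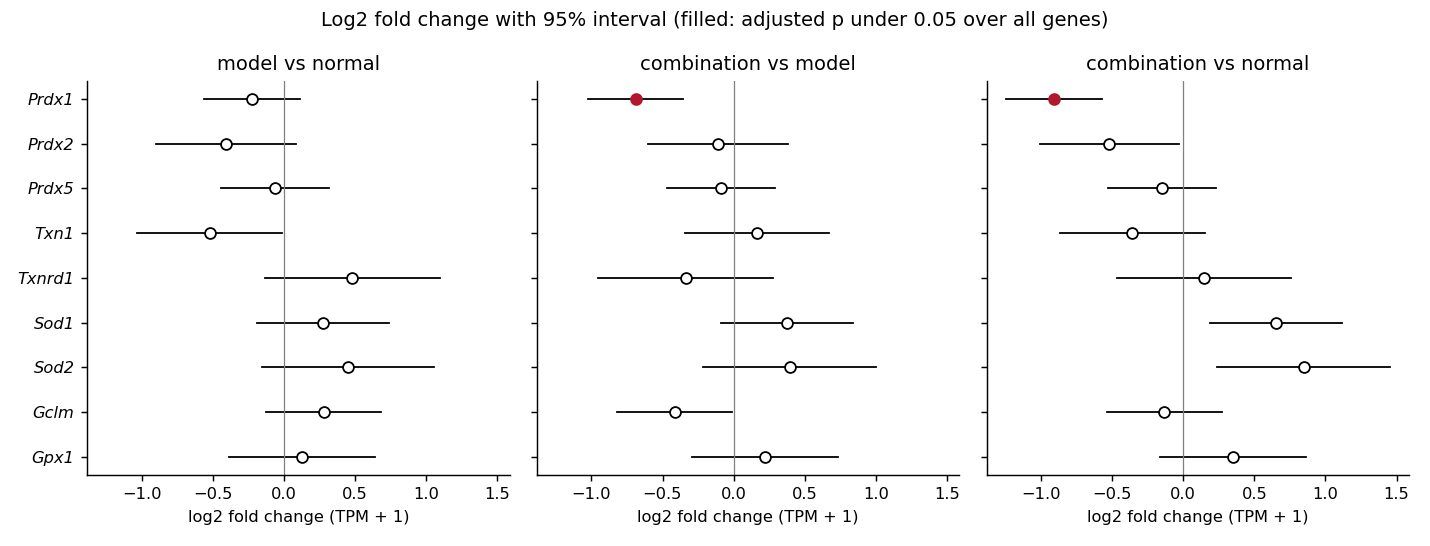
Log2 fold change on log2(TPM + 1) of the 9 members tested, by comparison (panels), with 95% intervals as lines and filled points for an adjusted p under 0.05. Prdx1 is the filled point in combination vs model (-0.69) and in combination vs normal (-0.91); all other points are open.

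The members differed widely in level. Ordered by mean TPM over the 9 libraries, they were Sod1 (376), Txn1 (187), Prdx2 (122), Prdx5 (72.4), Gpx1 (58.3), Prdx1 (54.4), Sod2 (30.8), Txnrd1 (25.8), Gclm (7.40) and Hmox1 (0.586). Sod1 ranked above 97.9% and Gclm above 42.4% of the genes tested. The ranges of neighbours over the libraries did not overlap between Sod1 and Txn1, Prdx2 and Prdx5, Txnrd1 and Gclm, or Gclm and Hmox1. Txn1 lay above Prdx2 in each of the 9 libraries, although their ranges overlapped. The order of the others was less settled: Gpx1 lay above Prdx1 in 6 of 9 libraries and Sod2 above Txnrd1 in 5 of 9.

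**Figure D2:**
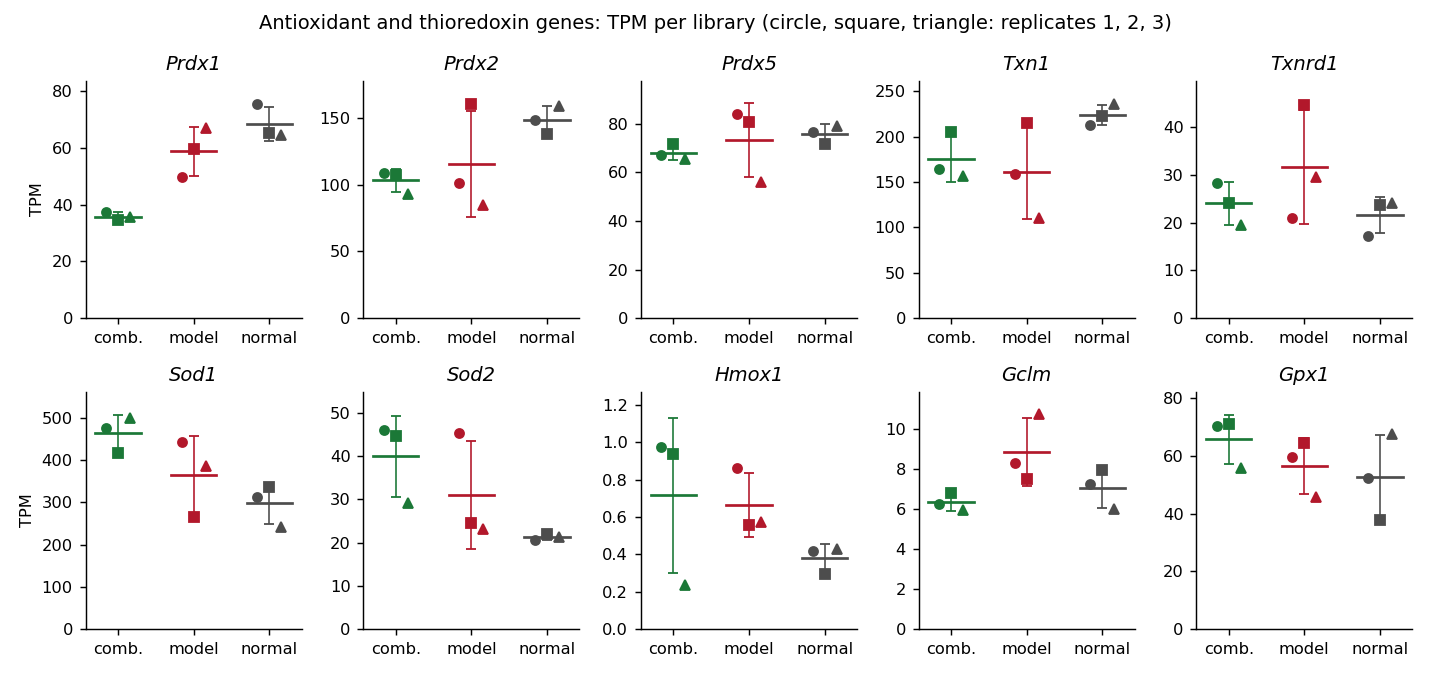
TPM of the 10 members (panels) in each library, by group on the horizontal axis, with circles, squares and triangles for replicates 1, 2 and 3 and lines for the mean ± SD of 3 libraries. The 3 combination libraries of Prdx1 sit between 34.6 and 37.4 TPM, below all other libraries, whose lowest is 49.8 TPM.

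Prdx1 (rn6 chromosome 5, 135536413 to 135551990, plus strand) encodes a cytosolic peroxiredoxin that thioredoxin restores. It was listed as 1 reference transcript of 6 exons, with no assembled one. Its level was 37.4, 34.6 and 35.5 TPM in combination libraries, 49.8, 59.6 and 67.1 TPM in model libraries, and 75.4, 65.4 and 64.5 TPM in normal libraries. The combination libraries were the 3 lowest and lay close together, while the model and normal libraries overlapped. Prdx1 averaged 35.8 ± 1.47 TPM in combination, 58.8 ± 8.70 TPM in model and 68.4 ± 6.01 TPM in normal libraries (SD, n = 3 each).

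In combination libraries Prdx1 fell by 0.69 on the log2 scale against model libraries (SE 0.149, limma adjusted p = 0.0454) and by 0.91 against normal libraries (SE 0.149, adjusted p = 0.029). In model against normal libraries its log2 fold change was -0.22 (adjusted p = 0.367). In bulk samples, fewer cells of a type and less RNA per cell cannot be told apart. The direction held under each alternative tried, but the threshold did not: against the model group the adjusted p was 0.121 with only these 2 groups fitted, 0.0573 without the filter and 0.0599 on reference transcripts alone, and it missed the threshold without each single library other than model replicate 2, with values up to 0.136. Against the normal group it missed the threshold without normal replicate 1 (0.104), 2 (0.101) or 3 (0.064) and without combination replicate 1 (0.0765) or 2 (0.0991).

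Marker sums of T cells and of other blood cells also differed between groups, not all in the direction of Prdx1. The T cell sum was lower in combination than in normal libraries, as given above, and overlapped with that of model libraries. Its mean was 3387 TPM in combination and 3157 TPM in model libraries. The 12 monocyte and macrophage markers summed to 431 to 778 TPM in combination, 107 to 235 TPM in model and 78.9 to 252 TPM in normal libraries, and the 11 platelet markers to 80.4 to 129, 23.0 to 42.0 and 15.1 to 36.6 TPM in combination, model and normal libraries. No marker of either list was at 0 throughout a group. The part of these cells in the level of Prdx1 was not tested.

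**Figure D3:**
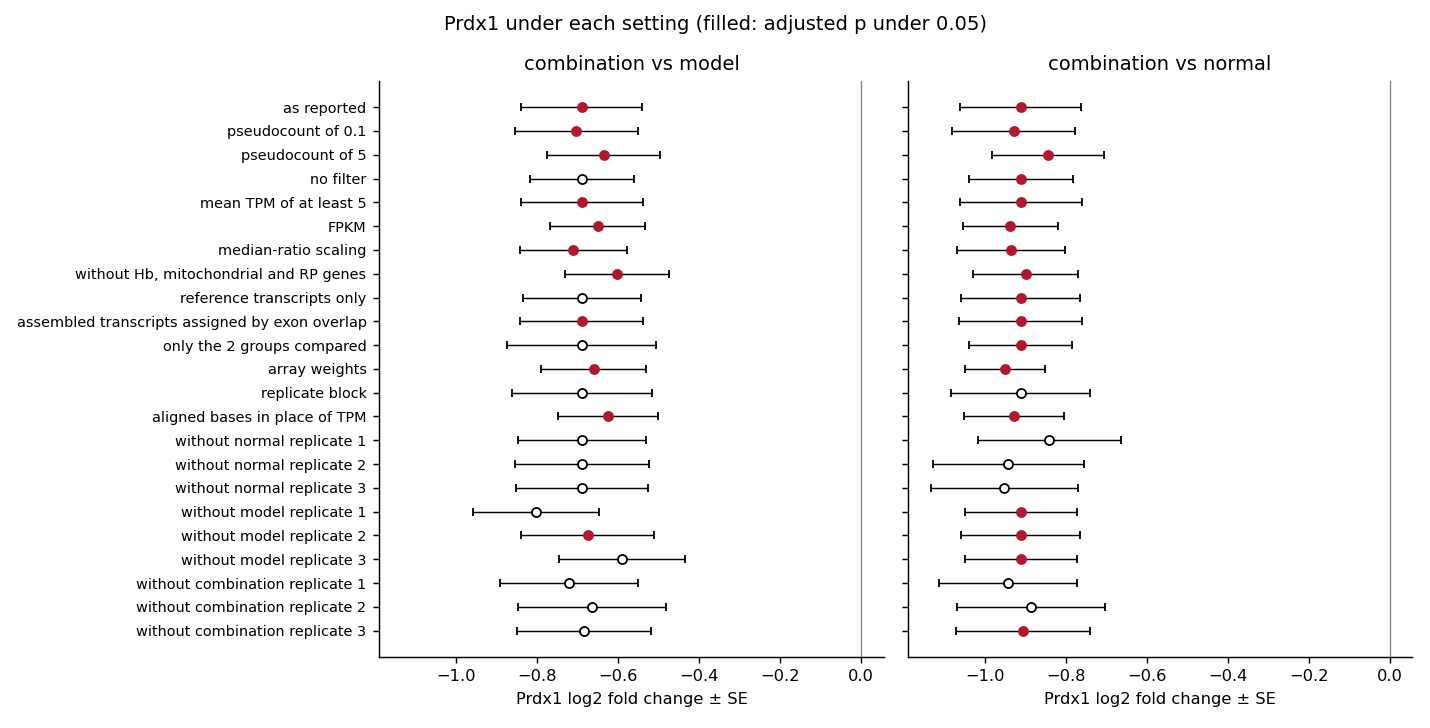
Prdx1 log2 fold change ± SE (horizontal axis) under each way of processing (vertical axis), for combination vs model (left) and combination vs normal (right), with filled points for an adjusted p under 0.05. All points lie below 0, between -0.80 and -0.59 on the left and between -0.95 and -0.84 on the right, while many are open.

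Copies of Prdx1 exist in the rat genome. RefSeq lists 7 pseudogenes of Prdx1 and 1 gene named as like it, Prdx1l1, which the tables name AABR07012795.1 (rn6 chromosome 2, 208738132 to 208739047). How the authors' counting split reads between such copies is not given, so the level of each is uncertain. The like gene was looked up after the Prdx1 values were seen. It had 4.76, 3.60 and 4.77 TPM in combination, 7.40, 9.24 and 7.57 TPM in model and 8.36, 8.02 and 8.91 TPM in normal libraries. It too was lowest in all 3 combination libraries, with log2 fold changes of -0.76 against model (adjusted p = 0.046) and -0.82 against normal (adjusted p = 0.0402). Both calls ended under several alternatives, among them the fits without each normal library in turn, with adjusted p-values up to 0.145 against model and 0.14 against normal when 1 library was left out. RefSeq also lists 1 gene named as like Txn1 and 1 pseudogene of Sod2, so their levels carry the same doubt.

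The genes whose log2 levels ran most like those of Prdx1 over the 9 libraries were Eef1d, Cpt1a and Ppia. Eef1d is a subunit of translation elongation factor 1 (Pearson's r = 0.986). Cpt1a is an enzyme of the entry of long-chain fatty acids into mitochondria (r = 0.976). Ppia is the prolyl isomerase cyclophilin A (r = 0.971). These 3 coefficients were the highest of 9145 candidate genes. The coefficients are descriptions: the 9 points share the 3 groups. Eef1d averaged 164 ± 8.95 TPM in combination, 234 ± 14.6 TPM in model and 262 ± 7.40 TPM in normal libraries (SD, n = 3 each). Cpt1a averaged 3.90 ± 0.770, 8.91 ± 2.33 and 11.5 ± 2.30 TPM in combination, model and normal libraries.

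Prdx2 (chromosome 19, 26084903 to 26090094, plus strand) encodes another cytosolic peroxiredoxin, known as one of the most abundant proteins of red cells. Its level was 109, 108 and 93.1 TPM in combination libraries, 101, 160 and 84.5 TPM in model libraries, and 148, 138 and 159 TPM in normal libraries. All combination libraries lay below all normal ones, and among the model libraries replicate 2 alone was not below the normal ones. The log2 fold change was -0.52 in combination against normal (95% interval -1.01 to -0.028, adjusted p = 0.176), -0.11 in combination against model (adjusted p = 0.789) and -0.41 in model against normal (adjusted p = 0.261). Without model replicate 2, the fold change of model against normal was -0.67 and passed (adjusted p = 0.0195); without model replicate 3 it was -0.21 (adjusted p = 0.609). Without model replicate 2, that of combination against model was 0.15. Combination against normal passed under 3 of the alternatives: with only the 2 groups fitted, where 1270 of 14365 genes were called, with array weights, where 5408 of 14252 were, and without model replicate 2, where 1490 of 14294 were.

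The summed red cell markers were highest in the model group. The 9 erythroid genes found summed to 262 to 866 TPM in combination, 2409 to 16215 TPM in model and 61.3 to 1124 TPM in normal libraries. The sum was highest in model replicate 1, at 16215 TPM, where Prdx2 had 101 TPM. The haemoglobin genes Hba-a2 (4986 ± 5149 TPM in model libraries) and Hbb (2286 ± 2505 TPM) made up most of the sum, and Klf1, an erythroid transcription factor, averaged 1.26 ± 0.388 TPM in model and 1.41 ± 0.329 TPM in normal libraries. The part of these cells in the levels of Prdx2 was not tested.

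Prdx5 (chromosome 1, 222164462 to 222167447, minus strand), a peroxiredoxin of mitochondria, peroxisomes and cytosol, did not pass in any comparison. It had 67.2, 71.4 and 65.3 TPM in combination libraries, 83.7, 80.5 and 55.9 TPM in model libraries and 76.6, 71.4 and 79.1 TPM in normal libraries. The groups overlapped in every comparison. Differences on the log2 scale were -0.15 in combination against normal (95% interval -0.53 to 0.23), -0.088 in combination against model and -0.065 in model against normal.

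Txn1 (chromosome 5, 75049747 to 75057752, minus strand), the cytosolic thioredoxin that restores peroxiredoxins, had 165, 205 and 157 TPM in combination libraries, 159, 214 and 110 TPM in model libraries and 213, 223 and 235 TPM in normal libraries. The normal libraries were tightly grouped. All combination libraries lay below them, and model replicate 2 lay within their range. The log2 fold change was -0.52 in model against normal (95% interval -1.03 to -0.014, adjusted p = 0.18), -0.36 in combination against normal (adjusted p = 0.355) and 0.17 in combination against model (adjusted p = 0.687). Without model replicate 2, model against normal was -0.75 and passed (adjusted p = 0.0309), and combination against model was 0.40; without model replicate 3, model against normal was -0.28 (adjusted p = 0.446).

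These sums rest on a reference transcript of 315 bases and an assembled transcript of 712 bases, whose shares differed between libraries. The reference transcript had 107, 150 and 0.387 TPM in combination libraries, 51.2, 146 and 0.403 TPM in model libraries and 141, 146 and 144 TPM in normal libraries. The assembled one held 34.9%, 26.9% and 99.8% of Txn1 TPM in combination, 67.7%, 32.1% and 99.6% in model and 33.6% to 39.0% in normal libraries. Replicate 3 of the combination group and replicate 3 of the model group thus had nearly all their Txn1 TPM in the longer transcript. No difference of the reference transcript beyond this spread was detected (exact two-sided permutation test, p = 0.3 for model against normal and p = 0.4 for combination against normal, where 0.1 is the smallest p that 3 against 3 libraries allow). On reference transcripts alone, the log2 fold change of model against normal was -2.71 (SE 2.06, adjusted p = 0.468).

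Because TPM divides by length, the same reads give fewer TPM on the longer transcript. An alternative chosen after this split was seen took the aligned bases of Txn1 per 1000000 aligned bases instead. Txn1 then had 46.2, 58.2 and 83.1 such bases in combination, 64.4, 62.5 and 47.3 in model and 65.6, 69.0 and 77.5 in normal libraries. Combination replicate 3 was the highest of the 9 on this scale and the lowest of its group in TPM. Model replicate 2 lay below all normal libraries and below model replicate 1 on this scale, unlike in TPM. The log2 fold change of model against normal was -0.29 (adjusted p = 0.374) and that of combination against normal -0.21 (adjusted p = 0.533).

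**Figure D4:**
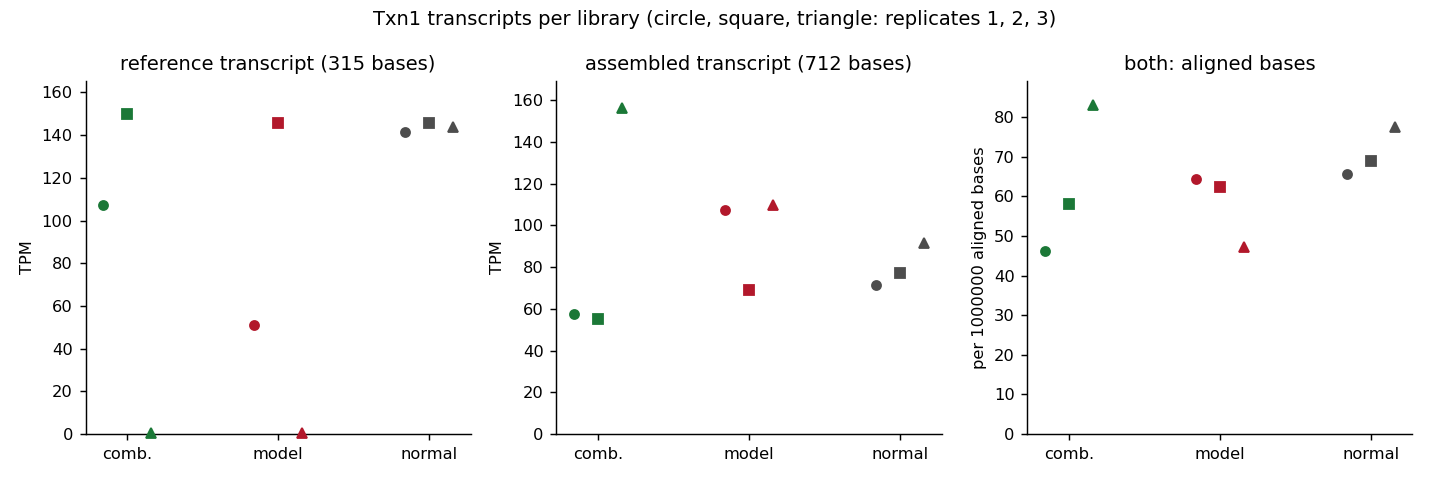
Txn1 reference transcript (left, TPM), assembled transcript (middle, TPM) and aligned bases of both per 1000000 (right) in each library, by group on the horizontal axis, with circles, squares and triangles for replicates 1, 2 and 3. The reference transcript is near 0 in combination replicate 3 (0.387 TPM) and model replicate 3 (0.403 TPM), and is 141 to 146 TPM in normal libraries.

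Txnrd1 (chromosome 7, 26946125 to 26984400, minus strand), the selenoenzyme that recharges thioredoxin, had 28.4, 24.2 and 19.5 TPM in combination libraries, 21.0, 44.6 and 29.5 TPM in model libraries and 17.2, 23.6 and 24.0 TPM in normal libraries. All groups overlapped, and model replicate 2 had the highest level. Its log2 fold change was 0.48 in model against normal (95% interval -0.13 to 1.09, adjusted p = 0.284), -0.34 in combination against model (adjusted p = 0.472) and 0.14 in combination against normal (adjusted p = 0.78). Model against normal was 0.21 without model replicate 2 and 0.73 without model replicate 1, and combination against model was -0.067 and -0.59 in these fits.

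Both superoxide dismutases ran higher in the combination than in the normal libraries without passing the test. Sod1 (chromosome 11, 30363280 to 30368862, plus strand), the copper and zinc enzyme, had 476, 417 and 501 TPM in combination libraries, 443, 265 and 387 TPM in model libraries and 313, 336 and 242 TPM in normal libraries. The combination libraries lay above all normal ones and the model libraries overlapped with both. Its log2 fold change was 0.65 in combination against normal (95% interval 0.19 to 1.12, adjusted p = 0.0989), 0.37 in combination against model (adjusted p = 0.286) and 0.28 in model against normal (adjusted p = 0.415). Without model replicate 2, combination against model was 0.16 and model against normal 0.49 (adjusted p = 0.0814); model against normal was 0.12 without model replicate 1 and 0.14 without normal replicate 3.

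Sod2 (chromosome 1, 47914759 to 47921587, minus strand), the manganese enzyme, had 46.0, 44.7 and 29.1 TPM in combination libraries, 45.3, 24.5 and 23.1 TPM in model libraries and 20.7, 22.0 and 21.4 TPM in normal libraries. All 6 libraries of CIA rats lay above the 3 normal ones, 3 of them at 44.7 TPM or more and the other 3 at 23.1 to 29.1 TPM. For Sod2 the log2 fold change was 0.85 in combination against normal (95% interval 0.24 to 1.45, adjusted p = 0.1), 0.45 in model against normal (adjusted p = 0.309) and 0.39 in combination against model (adjusted p = 0.388). Without model replicate 1, the highest of its group, model against normal was 0.15 (adjusted p = 0.727) and combination against model 0.70. Combination against normal passed for both dismutases with only the 2 groups fitted and with array weights, and for Sod1 without model replicate 2, in fits that called the 1270, 5408 and 1490 genes given for Prdx2. The monocyte and platelet sums given above were also higher in the combination libraries; their part in the levels of the dismutases was not tested.

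Gclm (chromosome 2, 225827504 to 225847874, plus strand), which lowers the feedback inhibition of glutathione synthesis, had 6.22, 6.78 and 5.95 TPM in combination libraries, 8.26, 7.49 and 10.7 TPM in model libraries and 7.25, 7.95 and 5.96 TPM in normal libraries. All combination libraries lay below all model ones, and the normal libraries overlapped with both. Gclm had a log2 fold change of -0.41 in combination against model (95% interval -0.82 to -0.0092, adjusted p = 0.184), 0.28 in model against normal (adjusted p = 0.341) and -0.13 in combination against normal (adjusted p = 0.682).

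Gpx1 (chromosome 8, 117117430 to 117118522, plus strand), a selenoenzyme that reduces hydrogen peroxide with glutathione, had 70.6, 71.0 and 56.0 TPM in combination libraries, 59.5, 64.5 and 45.8 TPM in model libraries and 52.2, 37.9 and 67.6 TPM in normal libraries. The groups overlapped in every comparison, and the spread was widest among normal libraries. The log2 fold change was 0.35 in combination against normal (95% interval -0.16 to 0.86, adjusted p = 0.371), 0.22 in combination against model and 0.13 in model against normal.

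Hmox1 (chromosome 19, 14508616 to 14515456, plus strand), which breaks down haem and is induced by haem and by NRF2, lay below the filter and was not tested. It was listed at 0.973, 0.938 and 0.237 TPM in combination libraries, 0.862, 0.554 and 0.574 TPM in model libraries and 0.417, 0.292 and 0.427 TPM in normal libraries. The model libraries lay above the normal ones, and combination replicate 3 had the lowest level of all.

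The partners of these genes were read from 5 lists of the same pathways. Of 20 other thioredoxin and peroxiredoxin genes, 18 were tested. Txnip, which binds thioredoxin and inhibits it, averaged 118 ± 34.2 TPM in model and 793 ± 161 TPM in normal libraries (SD, n = 3 each), a difference of -2.76 ± 0.234 on the log2 scale (SE, adjusted p = 0.00347), and no other gene of the list passed in that comparison. In combination against model Txnip was the 1 gene that passed, at 397 ± 56.9 TPM in combination libraries, with a log2 fold change of 1.77 (adjusted p = 0.0236). In combination against normal none of the 18 passed, and Txnip had the smallest p, with a log2 fold change of -0.98 (adjusted p = 0.0521). Txnip stayed past the threshold in model against normal under all 22 alternatives. In combination against model Txnip missed the threshold without combination replicate 1 (adjusted p = 0.0532) and with the replicate number as a block (adjusted p = 0.0652). The median of the 18 was 0.018, 0.028 and 0.012 in model against normal, combination against model and combination against normal.

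Of 25 other genes of glutathione synthesis and use, 17 were tested. Chac1, which degrades glutathione and is a target of the stress factor ATF4, rose in model against normal libraries (6.70 ± 3.96 and 0.512 ± 0.206 TPM, log2 fold change 2.18, adjusted p = 0.0314) and in combination against normal libraries (4.54 ± 1.38 TPM in combination, log2 fold change 1.85, adjusted p = 0.0488). Gstm1, a glutathione transferase with close family members in the genome, fell in combination against normal libraries, to 6.73 ± 1.95 TPM against 20.4 ± 2.48 TPM (adjusted p = 0.0468). These 3 calls ended without each normal library in turn, without model replicate 3 and, in combination against normal, without each combination library in turn; that of Chac1 in model against normal also ended without model replicate 1 and without combination replicate 2. None of the 17 passed in combination against model; the smallest p was that of Mgst1, with a log2 fold change of 0.97 (adjusted p = 0.0903).

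Of 21 genes of the NRF2 pathway and its other targets, 17 were tested. In model against normal 3 of the 17 passed as higher and none as lower, beside 2.32% higher and 1.69% lower of all genes. By sign alone, 9 of the 17 log2 fold changes were positive and 8 negative. Those that passed included Maff (log2 fold change 1.68, adjusted p = 0.0256) and Mafk (1.22, adjusted p = 0.0375), small MAF proteins that pair with NRF2 and with other factors. The other was Sqstm1 (1.19, adjusted p = 0.0375), the autophagy receptor p62. Maff averaged 96.8 ± 38.2 TPM in model and 28.1 ± 2.99 TPM in normal libraries. In combination against model, Mafk (-1.55, adjusted p = 0.0266) and Maff (-1.52, adjusted p = 0.0331) fell, at 67.6 ± 10.6 and 32.0 ± 7.81 TPM in combination libraries. In combination against normal 1 gene fell, Taldo1, an enzyme of the pentose phosphate pathway (-0.89, adjusted p = 0.0471). The calls in model against normal ended for all 3 genes without each normal library in turn and without model replicates 1 and 3, those in combination against model without each combination library in turn (for Maff also without model replicates 1 and 3 and each normal library), and that of Taldo1 without each library in turn other than model replicate 2. The median of the 17 was 0.26, -0.16 and 0.038 in the 3 comparisons, in the order above.

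Of 14 other genes of superoxide and peroxide handling, 13 were tested. None passed in model against normal, where Ccs, the copper chaperone of Sod1, had the smallest p (log2 fold change -0.43, adjusted p = 0.13), nor in combination against model, where Ucp2, a mitochondrial carrier, had it (-0.73, adjusted p = 0.0688). Cybb, the catalytic subunit of the phagocyte NADPH oxidase, rose in combination against normal libraries, with 23.0 ± 7.29 and 2.56 ± 2.69 TPM (2.95, adjusted p = 0.0325). Cybb is known from monocytes and neutrophils, and monocyte markers were high in the same libraries, as given above; their part was not tested. Its call ended without normal replicates 1 and 2 and combination replicates 1 and 2, with adjusted p-values up to 0.114. Of 17 selenoproteins and genes of selenium use, 13 were tested and 1 passed: Selenop, a carrier of selenium, fell in model against normal libraries, at 23.0 ± 1.19 and 49.9 ± 6.69 TPM (-1.08, adjusted p = 0.0329), a call that ended without each normal library in turn and without model replicates 1 and 3 (adjusted p up to 0.116). Its log2 fold change was 0.81 in combination against model (adjusted p = 0.0615). In combination against normal, Eefsec, the elongation factor of selenocysteine, had the smallest p (-0.84, adjusted p = 0.0886).

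The remaining marker lists are given by their sums. The 11 neutrophil markers summed to 5.49 to 8.88 TPM in combination, 1.01 to 9.11 TPM in model and 14.9 to 35.3 TPM in normal libraries. Ltf was at 0 throughout the model group. Only 2 of the 11, S100a8 and S100a9, averaged 1 TPM or more over all libraries. They made up most of the sum, with 7.98 and 15.0 TPM on average in normal libraries. Some of the others ran the other way, such as Csf3r, with 1.27 TPM in combination and 0.742 TPM in normal libraries. The 8 B cell markers summed to 11.5 to 20.2, 5.73 to 15.3 and 9.90 to 36.1 TPM and the 10 markers of cytotoxic and NK cells to 82.0 to 110, 51.6 to 74.5 and 101 to 163 TPM in combination, model and normal libraries, with Ncr1 at 0 throughout the model group. For all marker sums the exact two-sided permutation test over 3 against 3 libraries cannot go below p = 0.1. The exact test gave p = 0.1 for the monocyte and platelet sums in both comparisons of the combination group, and for the erythroid and the cytotoxic and NK sums in model against normal and in combination against model. It also gave p = 0.1 (exact) for the neutrophil sum in model against normal and in combination against normal and for the T cell sum in combination against normal. All other marker sums had p = 0.2 or more by the exact test.

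**Figure D5:**
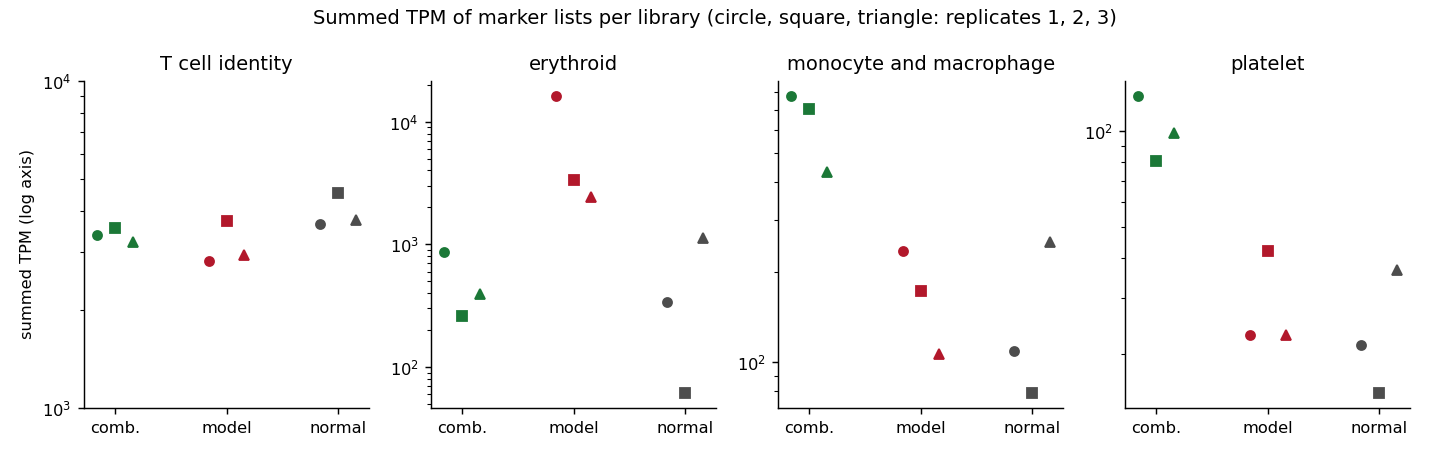
Summed TPM (log axis) of the markers of T cells, erythroid cells, monocytes and macrophages, and platelets in each library, by group on the horizontal axis, with circles, squares and triangles for replicates 1, 2 and 3. Monocyte sums are 431 to 778 TPM in combination libraries, above all others, and erythroid sums are highest in model libraries, at 2409 to 16215 TPM.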

How the data were processed

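Total RNA of 9 libraries was sequenced by the submitters. Per the submitters' processing notes, bcl2fastq and HISAT2 were used with the rat genome rn6 (versions not given). Expression of a fixed set of 80092 transcripts (41066 reference, 39026 assembled) was estimated by StringTie 1.3.3b, per the file headers. The deposited tables are text in another format than a matrix: other attributes of each transcript line hold coverage, FPKM and TPM as the authors' StringTie run computed them. Some tables leave a gene name blank; it was taken from any table that gave it. Combination tables carry other sample names in their headers; the groups of the labels were used. No column of another series was used.

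TPM was summed per gene name, across loci for the 381 names that lay at several. The 14252 genes averaging 1 TPM or more, of 28632 above 0, entered a limma 3.58.1 fit (R 4.3.3) of log2(TPM + 1) with a trend in the prior variance, 6 residual and 3.21 prior degrees of freedom, and Benjamini-Hochberg adjustment at 0.05. The script was tested on simulated data. Marker sums and Txn1 transcripts were compared by exact permutation over 20 arrangements. Python 3.11.15, pandas 2.3.3, numpy 2.4.6, scipy 1.17.1 and matplotlib 3.10.9 did the rest. Aligned depth, from coverage over FPKM, was 7.52 to 10.1 gigabases; without read counts no counting interval was derived. Intervals are 95% limits of the fit.

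The members and lists were chosen with earlier results of these data known. All 10 members are named; of each pathway list, up to 4 genes past the threshold by adjusted p, or else the 1 of smallest p; and the 3 genes most correlated with a member that passed. The listed genes Gstm2, Pgd, Selenof, Hba-a1, Hbb-b1 and Cd5 were not analysed here, and some erythroid markers are not reported here by name. Same-numbered libraries did not deviate together, so no pairing was fitted. The alternatives tried were FPKM, pseudocounts of 0.1 and 5, no filter or one of 5 TPM, median-ratio scaling, scaling without genes of haemoglobin, mitochondria and ribosomal proteins, reference transcripts only, assignment of assembled transcripts by exon overlap, a fit of the 2 groups alone, a replicate block, array weights, each library left out and, added after the data were seen, aligned bases.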

Additional observations from a re-analysis of the deposited data

How the results depend on the processing

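Of 594 values of members over 22 alternatives, 557 kept their direction and side of the threshold, 18 lost the threshold, 10 reached it and 9 turned. Every loss was of Prdx1, whose direction never turned. Prdx1 was the only member that had passed, so the values of the other members could not lose the threshold. Against model it lost the threshold in 8 of 9 fits without 1 library and in 4 of 13 other alternatives. Against normal it did so in 5 of 9 and 1 of 13. Of 457 values of the named pathway genes and of the gene like Prdx1, 304 kept their side of the threshold, 126 lost it, 27 reached it and 0 turned. Here too, values that had not passed could not lose it. The 9 that turned did so from values that had not passed: in model against normal, Gpx1 to -0.083 without normal replicate 2 and Prdx5 to 0.12 without model replicate 3; in combination against model, Prdx5 to 0.0047 without genes of haemoglobin, mitochondria and ribosomal proteins, 0.096 on reference transcripts and 0.017 without model replicate 1, Prdx2 to 0.056 with array weights and 0.15 without model replicate 2, and Txn1 to -0.081 without model replicate 3; in combination against normal, Txnrd1 to -0.0040 without normal replicate 1. Over the fits without 1 library these values spanned -0.083 to 0.33 (Gpx1), -0.17 to 0.12 (Prdx5, model against normal), -0.27 to 0.017 (Prdx5, combination against model), -0.31 to 0.15 (Prdx2), -0.081 to 0.40 (Txn1) and -0.0040 to 0.28 (Txnrd1). The causes were not tested.

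Counts of genes called follow in the order model against normal, combination against model and combination against normal, where they were 572, 592 and 516. They were 83, 257 and 188 without the filter, 1061, 1306 and 1181 with FPKM, 1235, 1461 and 1403 with median-ratio scaling, and 1041, 1372 and 1228 without genes of haemoglobin, mitochondria and ribosomal proteins. They were 168, 138 and 88 on reference transcripts, 86, 28 and 1270 with only the 2 groups compared, 2654, 2757 and 5408 with array weights, and 1383, 1758 and 1592 on aligned bases. A mean of at least 5 TPM gave 388 and 311 in the comparisons of the combination group. Leaving out 1 library gave 18 to 2682, 42 to 1212 and 23 to 1490 genes, and 0 to 2, 0 to 1 and 0 to 3 members. Members called in combination against model were 0 without the filter, on reference transcripts and with only the 2 groups compared. In combination against normal they were 4 with only the 2 groups compared, where 1270 of all 14365 genes were called. They were also 4 with array weights, where 5408 of all 14252 genes were called. The share of all genes called was thus far larger with array weights.

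Same-numbered libraries had correlations of -0.12 to 0.066 in their deviations, and 2 of 9 libraries correlated best with their own number. With the replicate number as a block, 87, 12 and 21 genes and 0, 0 and 0 members were called, and Prdx1 had adjusted p-values of 0.0985 against model and 0.0771 against normal. Of the named pathway genes, Txnip in model against normal kept its call under the block (adjusted p = 0.0256), Txnip in combination against model lost it (adjusted p = 0.0652), and so did the others that had passed. Depth is known in bases only, which bounds no single value.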
